A study of Capra hircus with 18 samples.

Results

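The p38 kinases MAPK12, MAPK13 and MAPK14 and the anion transporter SLC26A8 were described in the blood of goats held in pens and of other goats after road transport. The genes were taken by name from 2 deposited expression tables, 1 for each transport time against control, and they are 4 of the 1557 genes that have a row in either table. Every listed gene has a p-value of the authors under 0.05, so a gene has a row only because it differed between the groups, and genes just outside that threshold are not analysed here. For that reason the values of the members in transported against control goats are given as a description with no test, while their covariation among goats of the same group was tested.

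The goats were uncastrated Spanish males aged 8 months, all kept from feed overnight. Of the 18 goats, 7 were held in pens as controls, 4 rode a livestock trailer for 30 min (about 50 km) and 7 for 180 min (about 200 km). Each goat gave 1 whole blood RNA library. The study moved goats on 2 days, and because the day of each goat is not given in the labels, no day could be used as a batch.

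The p38 kinases are members of the mitogen-activated protein kinase family that are switched on by cellular stress and by inflammatory signals such as bacterial products and cytokines. Upstream kinases add phosphates to them, dual specificity phosphatases take these off, and active p38 kinases pass the signal to further kinases that stabilise the mRNAs of inflammatory cytokines in leukocytes. MAPK14 is the alpha form, present in most cells and best known in monocytes and neutrophils, MAPK13 is the delta form, and MAPK12 is the gamma form, best known in skeletal muscle. SLC26A8 belongs to a family of anion exchangers and channels and is best known in sperm cells. Activity of a kinase is set by phosphorylation, which was not measured here, so the values below are transcript levels only.

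MAPK13, MAPK14 and SLC26A8 are neighbours. In the coordinates of the deposited tables, whose genome build is not named in the sources used here, MAPK13 (ENSCHIG00000023563) lies at chr23:38654507-38662716 on the minus strand, MAPK14 (ENSCHIG00000000509) at chr23:38678484-38748669 on the minus strand and SLC26A8 (ENSCHIG00000014807) at chr23:38764658-38832076 on the plus strand. The gap is 15767 bases between MAPK13 and MAPK14 and 15988 bases between MAPK14 and SLC26A8. MAPK14 and SLC26A8 are therefore read away from each other, while MAPK13 follows MAPK14 on the same strand. In the RefSeq annotation of the ARS1.2 goat assembly, used for gene order only, the 3 are consecutive protein-coding genes. MAPK12 (ENSCHIG00000016446) lies elsewhere, at chr5:118578730-118586076 on the minus strand, between HDAC10 and MAPK11 in the RefSeq order. None of the 4 gene bodies overlaps another, although the kit named for the libraries is not stated to keep strand, so reads of any antisense transcript would be counted with the gene.

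The effective library size behind each FPKM value ran from 10443023 to 39473244 fragments in control goats, from 13992574 to 22855051 at 30 min and from 11290309 to 34125715 at 180 min. No pair of libraries within a group looked like a repeat deposit. At most 1.42% of the listed genes above a low read floor had equal counts in such a pair. Libraries of different groups were not compared in this way. Leukocyte markers were present: CSF3R, CD3E, CD14 and MS4A1 had reads in all 14 goats of the 180 min table. Red cell and platelet markers had no row. The tables have the same 7 control goats, so the 30 min and 180 min comparisons are not independent of each other.

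Among the p38 kinases, MAPK12 had a row at 30 min only and was lower, while MAPK13 and MAPK14 had rows at 180 min only and were higher. SLC26A8 had rows at both times and was higher at both. The fourth p38 kinase, MAPK11, had no row in either table. Of the 430 genes listed at 30 min, 29.5% had a mean above control, and of the 1247 genes listed at 180 min, 59.4% did.

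MAPK12 had normalized counts, which are read counts divided by a factor for the depth of each goat, of 356, 324, 279 and 527 in the 4 goats transported for 30 min. In the 7 control goats its lowest, median and highest normalized counts were 231, 602 and 1737. All 4 transported goats lay below the control median, but none lay below the lowest control goat, while 1.63% of listed genes were lower at 30 min without overlap. The group means were 371 ± 108 (SD, n = 4) and 883 ± 640 (SD, n = 7). On the scale of log2(normalized count + 1), the difference of transported minus control was -0.90 (SE 0.49), a level 0.535 times that of control. The control goats differed 7.51-fold among themselves, with coefficients of variation of 72.4% in control and 29.1% at 30 min.

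The difference of MAPK12 was close to that of its table as a whole. The median listed gene at 30 min had a difference of -0.92, and centring each goat on the median of its listed genes, which removes a shift of -0.69 between the groups, left MAPK12 at -0.21. Scaling to the effective library size instead left it at -0.85. The same centring moved SLC26A8 at 30 min from 1.28 to 1.98 and shifted the 180 min table by 0.19. Centring uses the listed genes alone, most of which were lower at 30 min.

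MAPK13 had lowest, median and highest normalized counts of 46.9, 159 and 318 in the 180 min goats. The corresponding control values were 33.3, 56.1 and 187. The groups overlapped: 6 of 7 transported goats were above the control median and 2 of 7 were above every control goat. The control goat at 187 was goat 8, and the next highest control goat had 75.2. The transported mean was 174 ± 86.4 and the control mean 72.8 ± 51.8 (SD, n = 7 each), with a log2 difference of 1.26 (SE 0.44), or 2.40-fold. Without goat 8 the difference was 1.52. MAPK13 rested on few reads, from 40 to 398 in the transported goats and from 18 to 99 in the control goats.

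MAPK14 had lowest, median and highest normalized counts of 1119, 1877 and 5537 at 180 min. In control goats these were 601, 1033 and 1172. All transported goats but goat 13, at 1119, were above every control goat. The means were 2658 ± 1611 (SD, n = 7) and 970 ± 201 (SD, n = 7), and the log2 difference was 1.28 (SE 0.33), or 2.43-fold. The goats transported for 180 min were spread more widely than the controls, with coefficients of variation of 60.6% and 20.7%. Goats 15 and 16, at 5537 and 4179, were the highest.

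SLC26A8 stood at the lowest level of the 3 chromosome 23 genes per length in 4 of 7 control goats and had the largest difference of the members. After 30 min its normalized counts were 384, 101, 205 and 262, against a lowest, median and highest value of 26.05, 83.3 and 240 in control. All 4 transported goats were above the control median and 2 of them were above every control goat. The log2 difference was 1.28 (SE 0.56), or 2.44-fold, between means of 238 ± 118 (SD, n = 4) and 108 ± 73.0 (SD, n = 7).

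After 180 min SLC26A8 ran from 298 through a median of 1184 to 2376 normalized counts. In control goats, scaled with the factors of that table, it ran from 31.4 through 86.4 to 252. The groups did not overlap, since the lowest transported goat, goat 13, was above the highest control goat, goat 3. The means were 1314 ± 771 (SD, n = 7) and 118 ± 76.0 (SD, n = 7), and the log2 difference was 3.46 (SE 0.55), or 11.03-fold. Of all genes listed at 180 min, 1.84% were higher with groups that did not overlap, and SLC26A8 was the 1 member among them, while 1.2% were lower without overlap. Nothing is read from that, because the same contrast put the gene in the table.

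**Figure D1:**
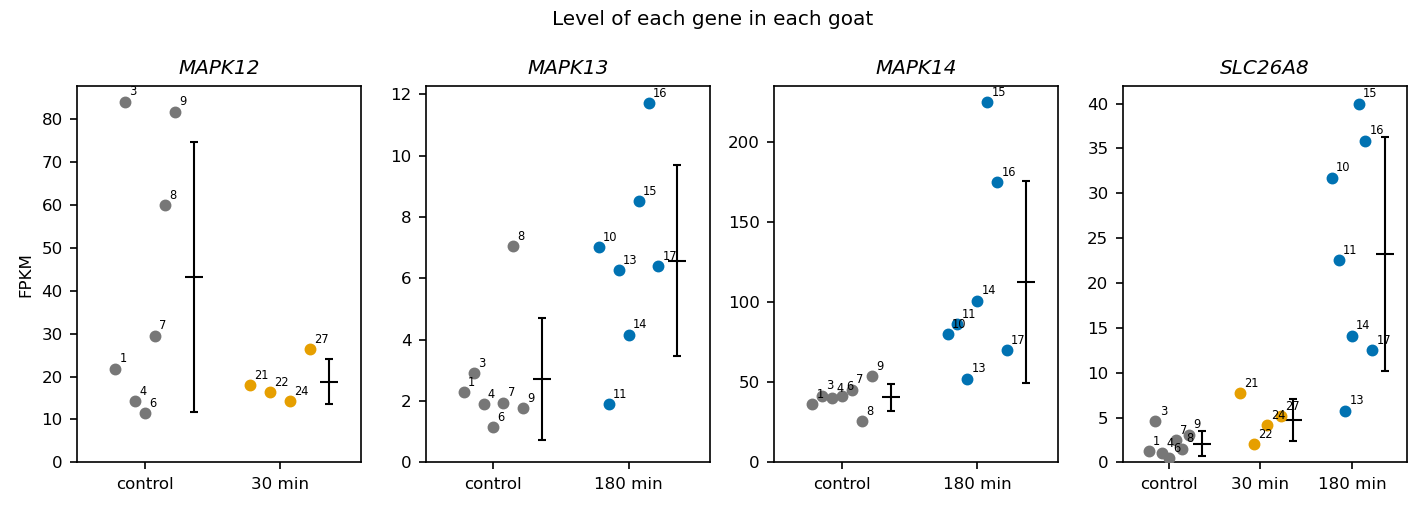
Level of MAPK12, MAPK13, MAPK14 and SLC26A8 in FPKM (vertical axes, linear, each from 0), 1 point per goat with its number, by group, with horizontal and vertical bars for the mean and SD. SLC26A8 is the only member whose control and 180 min points do not overlap, MAPK12 is spread widely among control goats, and goats 15 and 16 are highest in MAPK14 and SLC26A8.

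The SLC26A8 values of the transported groups were also compared with each other. For this, counts were scaled to a common effective library size, because the tables carry separate scaling factors. On log2(scaled count + 1), the mean was 10.06 in the 7 goats at 180 min and 7.88 in the 4 goats at 30 min. The difference was 2.18 (SE 0.55), or 4.53-fold. At 180 min 6 of 7 goats were above every 30 min goat. Leaving out each goat in turn gave differences from 1.82 to 2.47. These values are a description with no test, because the gene was listed for its height in these same goats and the comparison was chosen after they were seen. No such comparison was possible for the p38 kinases, none of which has a row at both times.

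Levels of different genes were compared in FPKM, which is per length. In the 7 control goats MAPK14 was the steadiest p38 transcript, at 25.9 to 53.9 FPKM with a median of 41.3. MAPK13 was low in every control goat, at 1.15 to 7.06 FPKM with a median of 1.95, and made up 1.29 to 7.61% of the summed FPKM of the 3 kinases. MAPK12 ranged from 11.5 to 84.1 FPKM. MAPK12 was above MAPK14 in goats 3, 8 and 9, with ratios of 2.01, 2.31 and 1.51, and below it in the other 4 control goats, with ratios from 0.278 to 0.650. The order of MAPK12 and MAPK14 in control blood thus differed from goat to goat, whereas MAPK13 was the lowest of the 3 in all 7 goats.

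**Figure D2:**
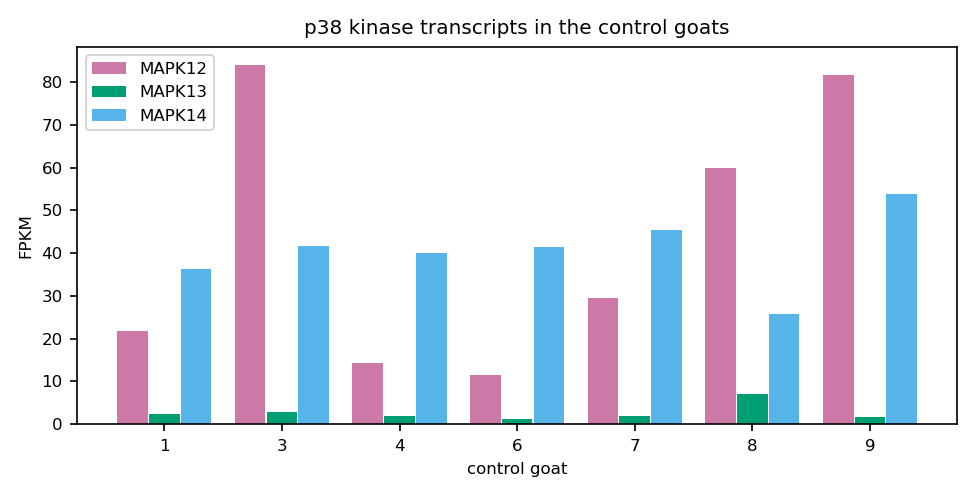
FPKM of MAPK12, MAPK13 and MAPK14 (vertical axis, linear from 0) in each of the 7 control goats (horizontal axis, goat number), 1 bar per gene. MAPK12 exceeds MAPK14 in goats 3, 8 and 9 only, and MAPK13 is the lowest bar in every goat, with its highest value of 7.06 in goat 8.

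At 180 min the order of the chromosome 23 genes was kept for the kinases. MAPK14 stood at 52.4 to 225 FPKM with a median of 86.3 and MAPK13 at 1.90 to 11.7 FPKM with a median of 6.40. The ratio of MAPK14 to MAPK13 had a median of 21.1 in control goats and 14.9 at 180 min, and its ranges, 3.66 to 36.03 and 8.35 to 45.5, overlapped. SLC26A8 stood at 0.510 to 4.58 FPKM in control goats and at 5.77 to 40.0 FPKM at 180 min. MAPK14 was 9.12 to 81.1 times as high as SLC26A8 in control goats and 2.53 to 9.08 times as high at 180 min, so these ratios did not overlap. They are descriptions, since both genes were chosen on the same contrast.

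Covariation across goats was examined within each group, on the log2 scale, because a correlation over both groups together would repeat the difference that chose the genes. There were 9 such correlations over 7 goats each, tested by exact permutation over all 5040 pairings, two-sided, with Benjamini-Hochberg adjustment over the 9. No Pearson correlation had an adjusted p under 0.05, and the 3 with the smallest p all had an adjusted p of 0.0798.

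MAPK13 and MAPK14 had a negative correlation among control goats, which missed the threshold after adjustment. Pearson's r was -0.87 (exact permutation p = 0.0266) and Spearman's rho was -0.79 (exact permutation p = 0.0480, adjusted p = 0.144). Control goat 8 had the highest MAPK13 and the lowest MAPK14 of its group, and without it r was -0.45. Leaving out the 2 goats farthest from the median of MAPK13 gave -0.60. Among the goats transported for 180 min the same pair had an r of 0.48 (exact permutation p = 0.280, adjusted p = 0.504) and a rho of 0.43 (exact permutation p = 0.354). Whether the correlations of the 2 groups differ was not tested.

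MAPK14 and SLC26A8, the divergent pair, had a positive correlation among the 180 min goats, which also missed it. Pearson's r was 0.83 (exact permutation p = 0.0224, adjusted p = 0.0798) and rho was 0.86 (exact permutation p = 0.0238, adjusted p = 0.107). Goats 15 and 16 were high in both and goat 13 was lowest in both. Leaving out 1 goat gave 0.74 to 0.93, and leaving out the 2 goats farthest from the MAPK14 median gave 0.69. In control goats r was 0.15 (exact permutation p = 0.726, adjusted p = 0.817) and rho was 0.14 (exact permutation p = 0.783). The control value turned on the setting: r was -0.02 when goats were centred on the median of the listed genes, 0.30 with effective library size and 0.42 without goat 6.

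For MAPK13 and SLC26A8, neither group passed the threshold. In control goats r was 0.25 (exact permutation p = 0.592, adjusted p = 0.761) and rho was 0.43 (exact permutation p = 0.354), and single goats set it: r was 0.68 without goat 8 and -0.18 without goat 6. At 180 min r was 0.32 (exact permutation p = 0.492, adjusted p = 0.738) and rho was 0.64 (exact permutation p = 0.139), and r was 0.69 without goat 11 and 0.14 without goat 16. There goat 11 had the lowest MAPK13 of its group and the fourth highest SLC26A8.

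**Figure D3:**
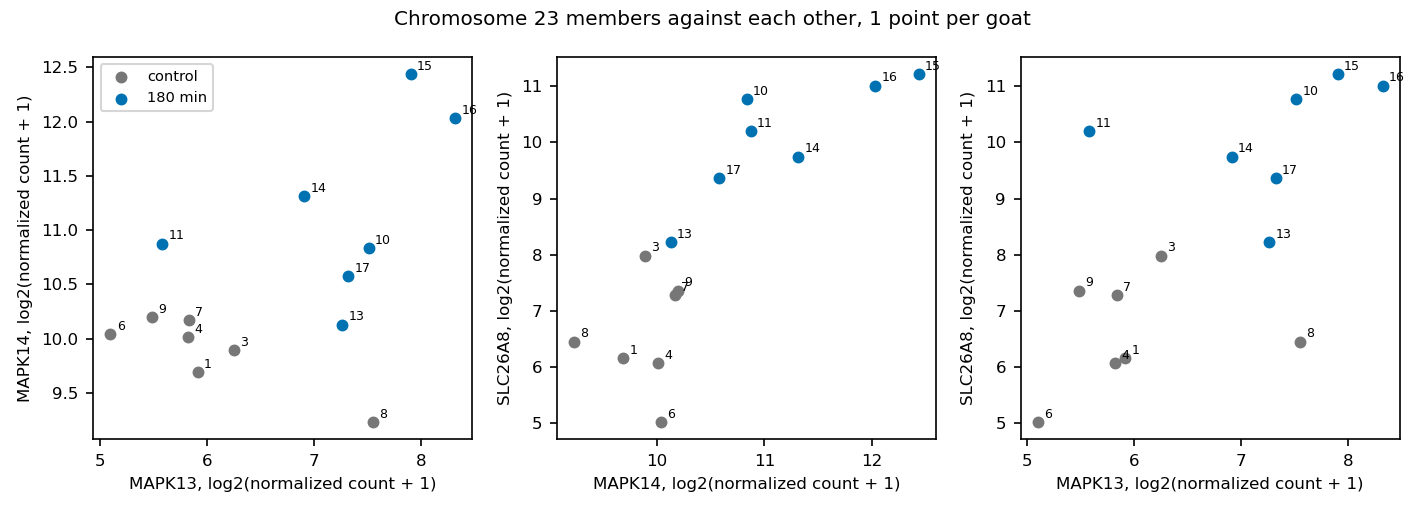
The 3 pairs of chromosome 23 genes on log2(normalized count + 1) axes, 1 point per goat with its number, control in grey and 180 min in blue. MAPK14 and SLC26A8 have an r of 0.83 within the 180 min goats and 0.15 within the control goats, and control goat 8 lies apart in both panels with MAPK13.

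MAPK12 could be set against the other members in control goats only, on counts scaled to the effective library size. MAPK12 and SLC26A8 had an r of 0.87 (exact permutation p = 0.0135, adjusted p = 0.0798) and a rho of 0.96 (exact permutation p = 0.00278, adjusted p = 0.025). Goats 3, 9 and 7 were the 3 highest in SLC26A8, and goats 3 and 9 were the highest in MAPK12. Without the 2 goats farthest from the MAPK12 median r was 0.71. After 30 min of transport the means of the pair moved in opposite directions from control, as given above. MAPK12 and MAPK13 had an r of 0.56 (exact permutation p = 0.192, adjusted p = 0.431) and a rho of 0.54 (exact permutation p = 0.236), and without the 2 farthest goats r was 0.92. MAPK12 and MAPK14 had an r of 0.04 (exact permutation p = 0.952, adjusted p = 0.952) and a rho of 0.36 (exact permutation p = 0.444), and without the 2 farthest goats r was -0.71.

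To place these values, each chromosome 23 member was correlated with every named gene of the 180 min table that had a mean normalized count of at least 10, and the r of the control goats and the r of the 180 min goats were averaged over 773 genes. These likeness values are descriptions over 7 goats a group, whose points share library and depth. The member most like MAPK14 was SLC26A8, at rank 123 of 773 by the average, rank 260 in control goats and rank 70 at 180 min. MAPK13 ranked 530 in likeness to MAPK14, with rank 771 in control goats and rank 214 at 180 min. Seen from MAPK13, SLC26A8 ranked 111 by the average (324 in control, 175 at 180 min). MAPK14 ranked 672 there (768 in control, 97 at 180 min). Seen from SLC26A8, MAPK14 ranked 181 (28 at 180 min) and MAPK13 ranked 357. Many genes from other places in the genome therefore followed each member more closely than its neighbours did.

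The genes most like MAPK14 were PPP1R3D, a regulator of glycogen phosphatase, with a mean r of 0.92, the adhesion receptor ADGRG3 with 0.91, and glutamine synthetase GLUL with 0.90. The chromatin-associated gene RCC2 (0.88) and the inflammasome sensor NLRP3 (0.87) came next. SLC26A8 was most like CSF3R, the receptor for the neutrophil growth factor G-CSF, with an r of 0.86 in control and 0.96 at 180 min. The decoy interleukin-1 receptor IL1R2 (0.86), FAM160A2 (0.86), the palmitoyltransferase ZDHHC18 (0.85) and alkaline phosphatase ALPL (0.84) followed. MAPK13 was most like the neutrophil chemokine CXCL8, with an r of 0.84 in control and 0.78 at 180 min. RBM3 (0.76), SNX15 (0.75), the cytokine signalling inhibitor SOCS3 (0.69) and PTPRU (0.68) followed. No gene was among the first 5 of more than 1 member.

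**Figure D4:**
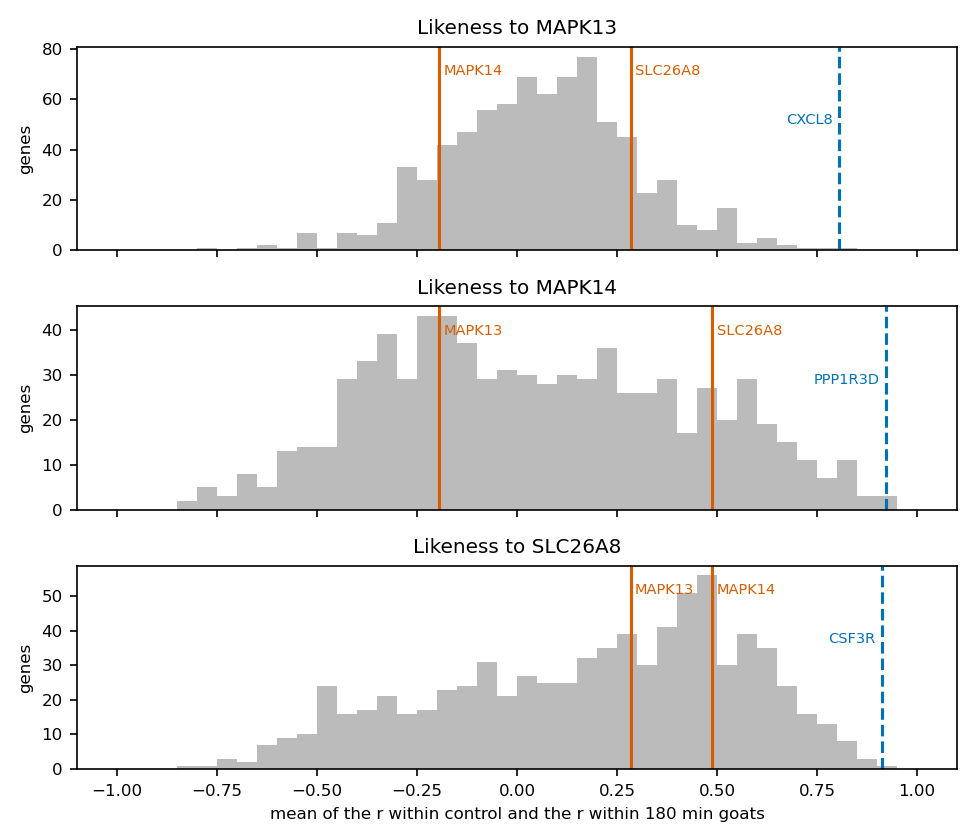
Number of genes (vertical axis) by the mean of their within-control and within-180 min Pearson r with MAPK13, MAPK14 and SLC26A8 (horizontal axis, 773 genes per panel), with solid lines at the other chromosome 23 members and a dashed line at the most similar gene. The neighbours sit well below the most similar gene in each panel, and MAPK14 and MAPK13 are below 0 with respect to each other.

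Of the 20 RefSeq protein-coding genes nearest to the chromosome 23 members, 10 on each side, 0 had a row at 30 min and 1 had a row at 180 min. Over all RefSeq protein-coding genes, 1.38% had a row at 30 min and 4.22% at 180 min, matched by symbol, so these counts are near the background. The listed neighbour was CDKN1A, the cell cycle inhibitor p21, 495 kb from MAPK13, with 203 ± 245 normalized counts at 180 min and 31.4 ± 15.9 in control (SD, n = 7 each), a log2 difference of 1.58. Within 1 Mb the other listed genes were ZNF76, a zinc finger gene, at 307 ± 55.2 against 426 ± 82.2 (SD, n = 7 each) and a log2 difference of -0.47, and at 30 min the unnamed gene ENSCHIG00000007802, with a log2 difference of -1.23.

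MAPK12 had a close neighbour in its own table. HDAC10, a histone deacetylase family member with polyamine deacetylase activity, lies at chr5:118571299-118576063 on the same strand, 2.67 kb from MAPK12. Its normalized counts after 30 min were 39.8, 67.1, 54.1 and 106, and in control goats they ran from 55.04 to 427, with goats 3, 8 and 9 the highest, as for MAPK12. HDAC10 had means of 66.6 ± 28.2 (SD, n = 4) and 198 ± 158 (SD, n = 7) and a log2 difference of -1.21. Across the 7 control goats HDAC10 had an r of 0.98 with MAPK12, the highest of the 240 named genes compared. This is a description of a gene picked as the highest of many, with no test, and whether some reads of the pair could be assigned to either gene was not tested.

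The myo-inositol oxygenase gene MIOX, 153 kb from MAPK12, had an r of 0.90 with it in control goats, with 195 ± 30.96 normalized counts at 30 min (SD, n = 4) and 501 ± 356 in control (SD, n = 7). The other genes most like MAPK12 were GPR179 (0.95), MEIKIN (0.94), LTBP4 (0.93) and ETS2 (0.92). At the opposite end, the death ligand FasL and the proto-oncogene MYC each had an r of -0.98 and SAMSN1 had -0.97, named after their values were seen. At 180 min the listed genes within 1 Mb of MAPK12 were ADM2, ODF3B, LMF2 and ENSCHIG00000001715, of which the last also had a row at 30 min.

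The rest of the p38 pathway was read from a list of 83 other genes, grouped by role. At 30 min 4 of the 83 had a row, where 1.38% of all RefSeq protein-coding genes had one. All 4 had higher means than control, as had 29.5% of listed genes, and 3 had an unadjusted limma p under 0.05, all higher, where 21.6% of the 430 listed genes were called higher and 24.4% lower. The median log2 difference was 0.95 for these 4 genes and -0.92 over all listed genes. At 180 min 13 of the 83 had a row, where 4.22% of all RefSeq protein-coding genes had one, 12 with higher means, as had 59.4% of listed genes, and 1 with a lower mean. Of these, 7 were called higher and 1 lower, where 36.8% of the 1247 listed genes were called higher and 25.6% lower. The median log2 difference was 0.94 for the 13 genes and 0.68 over all listed genes. The list was chosen with results of these goats in view. Each gene also had to differ in the same contrast to be listed at all, so the limma p-values of listed genes, markers included, are not independent evidence of a difference.

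Receptors and adaptors upstream of p38 gave 7 of the 13 genes at 180 min, and 3 passed with an adjusted limma p under 0.05 over all listed genes, where 16.6% of listed genes passed in that direction. IL18RAP, a subunit of the interleukin-18 receptor, rose from 218 ± 115 to 2808 ± 2759 normalized counts (SD, n = 7 each), a log2 difference of 3.20 (limma adjusted p = 0.0144). TLR4, the receptor for bacterial lipopolysaccharide, rose from 791 ± 213 to 1935 ± 1171, a log2 difference of 1.12 (limma adjusted p = 0.0470). TNFRSF1A, a receptor for tumour necrosis factor, rose from 1746 ± 621 to 3024 ± 717, a log2 difference of 0.83 (limma adjusted p = 0.0470). The transported goats were widely spread in IL18RAP, from 405 to 7395, and overlapped the control goats, which reached 412.

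Among upstream kinases and their activators, GADD45A, a stress-induced activator of a p38 pathway kinase, rose at 30 min. Its normalized counts were 577 to 906 in the 4 transported goats and 196 to 383 in control, with no overlap, where 6.51% of listed genes were higher without overlap. The means were 731 ± 140 (SD, n = 4) and 273 ± 68.2 (SD, n = 7), a log2 difference of 1.43 (limma adjusted p = 0.0283), and 1.86% of listed genes passed the adjusted threshold in that direction. At 180 min GADD45A had a log2 difference of 1.05 (limma adjusted p = 0.0821), with goats from 119 to 2190. No kinase that phosphorylates p38 directly, MAP2K3, MAP2K4 or MAP2K6, had a row, and neither did any of the 10 other MAP kinases on the list.

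Genes of the remaining roles did not pass the adjusted threshold, and those named here were picked after their values were seen. MAPKAPK2, the best known kinase activated by p38, had 1967 ± 361 normalized counts at 180 min and 1284 ± 491 in control (SD, n = 7 each), a log2 difference of 0.69 (limma adjusted p = 0.0618). The phosphatases that act on p38 did not share a direction: DUSP16 had a log2 difference of 2.39 (limma adjusted p = 0.0715) and DUSP10 one of -1.44 (limma adjusted p = 0.0658). DUSP10 was near the floor of detection, with means of 11.6 ± 6.40 and 27.5 ± 11.5 normalized counts. DUSP1 had a log2 difference of 1.13 at 30 min (limma adjusted p = 0.0912) and 0.45 at 180 min (limma adjusted p = 0.541). Of 12 transcription factors and other substrates, 1, the mRNA-destabilising protein ZFP36, had a row at 30 min and 0 had a row at 180 min.

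Of 10 other SLC26 transporters, 2 had a row at 180 min and 0 at 30 min, where 4.22% and 1.38% of all RefSeq protein-coding genes had one. SLC26A6, an exchanger of chloride for other anions, rose from 547 ± 272 to 4562 ± 5027 normalized counts (SD, n = 7 each), a log2 difference of 2.72 (limma adjusted p = 0.0133). Its groups did not overlap, with control goats up to 921 and transported goats from 1550, where 1.84% of listed genes were higher without overlap and 16.6% passed the adjusted threshold upwards. Goat 10, at 15648, was far above the rest, and without it the transported mean was 2714 ± 1281 (SD, n = 6). SLC26A9 had no reads in any control goat, which allows up to 5.89 normalized counts in the shallowest of them, and 0 to 78.3 normalized counts at 180 min. No test of it is read, since its control goats do not vary and the fitted value depends on the added 1.

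**Figure D5:**
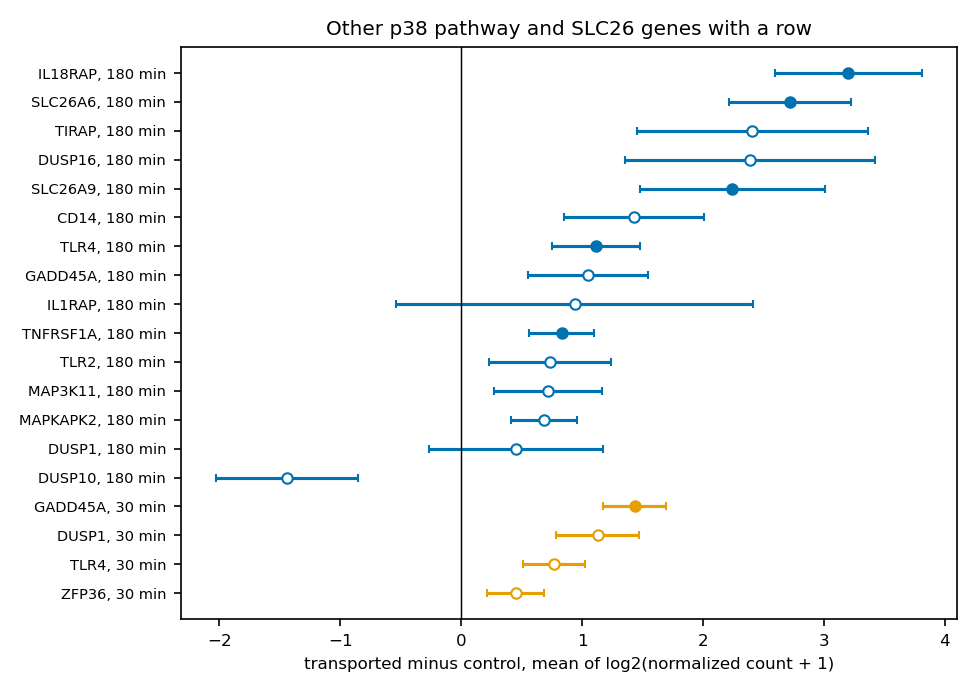
Difference of transported minus control goats in the mean of log2(normalized count + 1) (horizontal axis), with bars for the standard error, for the listed p38 pathway and SLC26 genes with a row at 180 min (blue) or 30 min (orange); filled points have a limma adjusted p under 0.05. DUSP10 is the 1 gene left of 0, and the value of SLC26A9 and its filled point depend on the added 1 because all its control goats are at 0.

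Markers of blood cell types differed with transport too. At 180 min 6 of 18 neutrophil markers had a row and all 6 had higher means, 4 of them with a limma adjusted p under 0.05, where 59.4% of listed genes had higher means and 16.6% passed upwards, and their summed normalized count was 60955 to 185915 against 18910 to 78189 in control. For monocytes 5 of 8 markers had a row, all higher and 2 past the adjusted threshold (against the same shares), with sums of 11244 to 31933 against 3741 to 11499. For T cells 6 of 14 markers had a row, all lower and 3 past it, where 7.14% of listed genes were, with sums of 4449 to 9019 against 8064 to 15344. Of these markers only MGAM was at 0, in 1 goat. The B cell marker MS4A1 was lower and the NK cell marker NKG7 was higher. At 30 min 4 of 9 B cell markers and the NK cell marker NCR3 had a row, with means below control, as had most listed genes, and none had an unadjusted limma p under 0.05. The median log2 difference of the B cell markers was -0.67, against -0.92 over all listed genes, and no T cell or monocyte marker was listed. In these bulk blood tables, more cells of a type and more RNA per cell cannot be told apart.

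The chromosome 23 members were set against these sums within each group. Over 18 correlations of MAPK13, MAPK14 and SLC26A8 with 3 marker sums in 2 groups, chosen after the data were seen, 1 had an adjusted p under 0.05: SLC26A8 with the monocyte sum at 180 min. Its r was 0.94 (exact permutation p = 0.00159, adjusted p = 0.0286), its rho was 1.00 (exact permutation p = 0.000397), and r without the 2 farthest goats was 0.97. SLC26A8 and the markers in this sum were all listed because they were higher in these same 180 min goats. The p-value is therefore not independent evidence of a link between them, and no conclusion is drawn from it. In control goats the same pair had an r of 0.58 (exact permutation p = 0.178, adjusted p = 0.400) and a rho of 0.57 (exact permutation p = 0.200).

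With the neutrophil sum SLC26A8 had an r of 0.86 in control goats (exact permutation p = 0.0113, adjusted p = 0.0598) with a rho of 0.93, and an r of 0.67 at 180 min (exact permutation p = 0.0976, adjusted p = 0.293) with a rho of 0.68. With the T cell sum its r was -0.84 in control goats (exact permutation p = 0.0133, adjusted p = 0.0598) and -0.60 at 180 min (exact permutation p = 0.152, adjusted p = 0.390), with rho of -0.68 and -0.86.

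MAPK14 with the monocyte sum had an r of 0.78 in control goats (exact permutation p = 0.0353, adjusted p = 0.127) and 0.91 at 180 min (exact permutation p = 0.00694, adjusted p = 0.0598). Without the 2 farthest goats these were 0.23 and 0.76. MAPK14 with the neutrophil sum had an r of -0.19 and 0.15, and MAPK13 had 0.46 and -0.09, in control and 180 min goats (exact permutation p from 0.326 to 0.853). The r of MAPK14 and SLC26A8 at 180 min was thus found in goats in which the genes also had an r of 0.91 and 0.94 with the monocyte sum. In the same goats SLC26A8 had an r of 0.96 with CSF3R, the gene most like it and a marker within the neutrophil sum. Abundant markers weigh most in such sums: CSF3R, S100A12 and S100A8 had mean normalized counts of 49832, 34906 and 14980 at 180 min. The sums therefore do not rank monocytes against neutrophils. The part of cell composition in the differences and correlations of the members was not tested.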

How the data were processed

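RNA-seq of whole blood from 18 goats was available as 2 tables. Per the study's methods the authors cleaned reads with fastp and mapped them with HISAT2, and globin mRNA was removed from blood libraries. For the tests of genes the methods name both edgeR, with TMM factors, and DESeq2. The genome build and counting tool are not given in the sources used here. The authors deposited raw read counts per gene, normalized counts (a signal of counts divided by 1 size factor per goat, set separately in each table), FPKM values, gene lengths in bases (the other unit used), and a p-value of their own for each gene, which was read only to find that all listed genes lie under 0.05. Their fold changes and adjusted values were not used.

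Grouping followed the labels. Read counts of control goats were identical in both tables (0 differing). Effective library sizes were recovered as count divided by FPKM and length. All listed genes of a table (430 at 30 min, 1247 at 180 min) were fitted together with limma 3.58.1 (R 4.3.3) on log2(normalized count + 1), two-sided, with p adjusted over the table by Benjamini-Hochberg. limma was used in place of a count model because the tables hold called genes only, so factors over the listed genes have no unchanged genes to rest on. edgeR 4.0.16 and DESeq2 1.42.0 on the counts were alternatives, with other pseudocounts (0.1, 10), a mean count of at least 10, median centring, effective library size, and leaving out each goat. The fits were also tried on simulated data, but no value from that is given and no conclusion here rests on it. Correlations used exact permutation tests. Intervals of counting error were not computed, and the floor for a count of 0 is 3 counts and covers counting error only.

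The members and gene lists were chosen with earlier results of these data known. Named genes were the members, pathway genes with an adjusted limma p under 0.05, the 5 genes most like each member, and listed genes within 1 Mb. MAPKAPK2, DUSP16, DUSP10, DUSP1, ZFP36, FasL, MYC and SAMSN1 were named outside this rule, after their values were seen. Cell type markers (CD3E, CD14, MS4A1, NKG7, NCR3, MGAM) were named from the marker lists as a check of the tissue. The labels call each library a separate goat.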

Additional observations from a re-analysis of the deposited data

Results flagged for a closer look

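MAPK13 in control goat 8 stood apart from the other 6 control goats, at 187 normalized counts where the next was 75.2, a gap of 0.727 of the range of the group, above the Dixon limit at the 95% level. Of 10 sets of member values, in groups of 4 or 7 goats, that were looked at in this way, this was the 1 found. Chance gives about 1 in 20 for each set, so it gives more than that over all 10. The control goats of SLC26A8 entered once for each transport time, so the sets are not all separate. Goat 8 had the smallest effective library, 10443023 fragments, and 95 reads of the gene lie behind the value.

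SLC26A8 had a mean 2.18 higher on the log2 scale in 180 min goats (n = 7) than in 30 min goats (n = 4). The gene was listed for its values in these same goats, so no test of this difference is given.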

How the results depend on the processing

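The log2 differences of the members kept their direction in all 84 recalculations. Leaving out 1 goat gave -1.16 to -0.67 for MAPK12, 1.00 to 1.64 for SLC26A8 at 30 min, 1.09 to 1.54 for MAPK13, 1.07 to 1.45 for MAPK14 and 3.20 to 3.77 for SLC26A8 at 180 min. Among correlations, MAPK12 and SLC26A8 passed the adjusted threshold as Spearman's rho of 0.96, and leaving out 1 control goat gave r from 0.80 to 0.94, past it without goat 7 or goat 8. Signs turned for MAPK14 and SLC26A8 in control goats, to -0.023 with median centring and -0.0055 without the 2 farthest goats, and for MAPK12 and MAPK14, to -0.34 and -0.71, with -0.35 to 0.59 on leaving out 1 goat. For MAPK13 and SLC26A8 in control goats, leaving out 1 goat gave -0.18 to 0.68. The cause was not tested.

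At 30 min limma called 198 listed genes (93 higher, 105 lower). The number was 304 with edgeR and the deposited size factors (111 higher, 193 lower), 135 with median centring (126 higher, 9 lower), and 105 to 221 on leaving out 1 goat. Among the transported goats it was 105 without goat 24 and 109 without goat 21, but 167 without goat 22 and 156 without goat 27. Why these counts differ was not tested. At 180 min limma called 778 (459 higher, 319 lower), 1018 by edgeR with the deposited size factors (648 higher, 370 lower), 725 by edgeR with TMM factors (245 higher, 480 lower), 792 by DESeq2 (292 higher, 500 lower) and 737 with median centring (311 higher, 426 lower), and 625 to 762 on leaving out 1 goat. With effective library size it was 748 (485 higher, 263 lower). So at 180 min more genes were called lower only where the scaling came from the listed genes alone (TMM, DESeq2, median centring). With the deposited size factors or effective library size, more were called higher. At 30 min effective library size gave 199 (105 higher, 94 lower), so directions there also turn on the scaling. The pathway list had 6 to 11 genes called at 180 min and 3 at 30 min on leaving out 1 goat. No paired analysis was possible because goats of different groups carry different numbers. The planned comparison of MAPK12 between transport times gave no value, since MAPK12 has no row at 180 min. Depth limits MAPK13 and SLC26A8 in control goats, with as few as 18 and 17 reads in a goat.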
